A study of Arabidopsis thaliana with 21 samples.

Results

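The KNOX genes are a small family of homeobox transcription factor genes of *Arabidopsis thaliana*, and their Polycomb marks were compared between mutant and wild-type seedlings. The family was taken by locus as 8 of 37887 annotated nuclear genes, of which 4 belong to class I and 4 to class II. The class I genes are *STM* (AT1G62360), *KNAT1* (AT4G08150), *KNAT2* (AT1G70510) and *KNAT6* (AT1G23380), and the class II genes are *KNAT3* (AT5G25220), *KNAT4* (AT5G11060), *KNAT5* (AT4G32040) and *KNAT7* (AT1G62990). Every peak that overlapped one of these genes, or the 2 kb before its start, was counted as a KNOX region. This gave 15 to 21 KNOX regions of 23205 to 27688 in each H2AK121ub table, and 10 or 11 of 11487 to 13677 in each H3K27me3 table.

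The data are ChIP-seq of whole seedlings at 7 days after germination (DAG), made with antibodies against monoubiquitinated histone H2A (H2AK121ub) or trimethylated lysine 27 of histone H3 (H3K27me3). The mutants were *atbmi1abc*, a strong *atbmi1a/b/c* triple mutant, *clfswn*, the *clf28/swn7* double mutant, and *lhp1*, and each was set against wild-type (WT) Col-0 seedlings. H2AK121ub was profiled in all mutants and H3K27me3 in *atbmi1abc* and *clfswn*, with 2 replicates per group and a named WT control for each mutant library. All plants had the Col-0 background, and each library came from pooled whole seedlings, in which meristem, leaf and root chromatin is mixed. A weaker mark in every cell and the same mark in fewer cells therefore cannot be told apart in any value below.

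Polycomb repressive complex 1 (PRC1) ubiquitinates H2A, with AtBMI1 proteins among its RING finger subunits. PRC2 methylates H3K27 through the methyltransferases CLF and SWN in seedlings, and LHP1 binds H3K27me3. Class I KNOX proteins keep shoot meristem cells undifferentiated, in part by raising cytokinin and lowering gibberellin. Their genes are held silent in leaves by Polycomb proteins, at some of these genes together with AS1 and AS2. Class II KNOX genes are expressed broadly in differentiating organs and act there in a largely opposite way to class I. KNOX proteins of both classes bind DNA as partners of BELL homeodomain proteins.

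Sequence was taken from the centre of the 6 regions on which the comparisons below turn: the region of *STM* called for H2AK121ub in *clfswn* and not in WT, the H3K27me3 peaks that remained or appeared at *KNAT1*, *KNAT6*, *KNAT3* and *KNAT5* in *clfswn*, and the H3K27me3 peak of *KNAT4* that was higher in *atbmi1abc*. Each is read 5′ to 3′ on the strand of the gene, from the RefSeq copy of the TAIR10.1 assembly, and holds up to 300 bases. Capitals mark matches on either strand to 5 motifs, which were searched by their letters alone: the GAGA repeat (GAGAGA) and the telobox (AAACCCTA), both bound by factors that recruit PRC2, the RY element (CATGCA) bound by VAL proteins, the G-box (CACGTG), and the KNOX and BELL site (TGACAG).
*STM*, chr1:23061006-23061305, minus strand, 288 bases of intron and 12 of coding exon: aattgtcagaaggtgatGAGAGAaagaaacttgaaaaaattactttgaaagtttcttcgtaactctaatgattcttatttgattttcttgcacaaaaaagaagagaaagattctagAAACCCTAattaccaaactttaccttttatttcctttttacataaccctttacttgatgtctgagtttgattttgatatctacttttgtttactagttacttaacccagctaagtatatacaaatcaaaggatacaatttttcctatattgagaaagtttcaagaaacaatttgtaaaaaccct
*KNAT1*, chr4:5150241-5150540, minus strand, coding exon: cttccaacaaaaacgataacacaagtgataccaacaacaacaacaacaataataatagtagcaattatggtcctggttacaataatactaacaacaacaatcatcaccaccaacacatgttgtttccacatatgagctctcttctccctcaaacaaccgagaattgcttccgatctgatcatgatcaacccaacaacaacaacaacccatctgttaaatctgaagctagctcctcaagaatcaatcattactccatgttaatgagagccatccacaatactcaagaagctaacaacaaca
*KNAT6*, chr1:8302148-8302407, minus strand, 236 bases of coding exon and 24 of intron: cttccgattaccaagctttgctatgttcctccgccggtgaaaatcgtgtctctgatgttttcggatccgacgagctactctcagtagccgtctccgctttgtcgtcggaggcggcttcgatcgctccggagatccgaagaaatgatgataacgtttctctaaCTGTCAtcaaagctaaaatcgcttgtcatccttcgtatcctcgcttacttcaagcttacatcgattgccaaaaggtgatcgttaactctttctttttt
*KNAT3*, chr5:8736507-8736806, plus strand, coding exon: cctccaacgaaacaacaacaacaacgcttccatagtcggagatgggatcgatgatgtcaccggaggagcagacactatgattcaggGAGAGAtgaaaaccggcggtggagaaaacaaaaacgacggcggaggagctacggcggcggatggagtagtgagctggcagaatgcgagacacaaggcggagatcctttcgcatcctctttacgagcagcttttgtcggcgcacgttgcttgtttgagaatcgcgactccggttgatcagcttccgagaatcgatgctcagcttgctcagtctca
*KNAT5*, chr4:15494387-15494542, plus strand, coding exon: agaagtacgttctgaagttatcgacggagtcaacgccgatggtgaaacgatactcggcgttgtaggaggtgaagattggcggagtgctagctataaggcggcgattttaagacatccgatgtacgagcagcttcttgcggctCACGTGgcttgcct
*KNAT4*, chr5:3511838-3512137, plus strand, 136 bases of coding exon and 164 of intron: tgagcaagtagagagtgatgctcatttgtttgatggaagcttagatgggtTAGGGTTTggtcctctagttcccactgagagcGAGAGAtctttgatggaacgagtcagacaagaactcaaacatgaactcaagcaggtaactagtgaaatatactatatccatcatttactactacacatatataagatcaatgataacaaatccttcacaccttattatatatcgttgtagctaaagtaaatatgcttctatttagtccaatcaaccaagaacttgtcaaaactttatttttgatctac

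The *STM* window and the *KNAT4* window each held 1 GAGA repeat and 1 telobox, and the *KNAT3* window held 1 GAGA repeat. The *KNAT6* window held 1 KNOX and BELL site and the *KNAT5* window 1 G-box, whereas the *KNAT1* window held none of the 5 motifs. Over all matched regions, the central 300 bases held a GAGA repeat in 34% of H2AK121ub regions of the *clfswn* comparison, and a telobox in 5.16%. For H3K27me3, these shares were 24.1% and 4.99% in the *atbmi1abc* comparison. In the *clfswn* comparison of H3K27me3, 26.9% of windows held a GAGA repeat, 7.27% a KNOX and BELL site and 4.76% a G-box. These matches describe the letters only. GC content ranged over 28% in the *STM* window, 35.3% in *KNAT4*, 37.7% in *KNAT1*, 46.5% in *KNAT6*, 51.9% in *KNAT5* and 53.3% in *KNAT3*.

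Summed over its own H2AK121ub peaks, a library held 1760466 to 9097784 reads in the mutants and 7151170 to 7490200 in WT. For H3K27me3 they came to 761013 to 4933021 in the mutants and 4665828 to 9575222 in WT. The lowest values were those of the marks in the mutants of their own complexes, H2AK121ub in *atbmi1abc* and H3K27me3 in *clfswn*. The study reports as a technical limit that *atbmi1abc* libraries gave less DNA and mapped less well. The part of this in the *atbmi1abc* values was not tested. Each mutant library was compared with its control by edgeR's quasi-likelihood test on the reads of all regions found in both replicates. The replicate was a block and the authors' rescaling an offset, with no library-size factor beside it. That offset was small, with medians of −0.137 to 0.143 on the log2 scale. The log2 ratios of total reads in regions, mutant over WT, ran from −2.75 to 0.351. Reads were therefore compared nearly as counted. A region was called reduced or increased when its Benjamini-Hochberg adjusted p over all regions was under 0.05. Log2 ratios per replicate are of mutant reads plus 1 over WT reads plus 1, without scaling, and their medians over all regions were −1.35 and −0.81 for H2AK121ub in *atbmi1abc*. They were −0.17 and −0.14 for this mark in *clfswn*, with 0.31 and 0.08 in *lhp1*. The H3K27me3 medians were −0.17 and 0.02 in *atbmi1abc* and −3.26 and −1.98 in *clfswn*. Per the study's methods, replicates came from independent seedling material.

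In WT, the marks divided the family (the plot of read density by gene). The class I genes and *KNAT7* lay in H3K27me3 domains in all 4 WT libraries. No WT library had an H3K27me3 peak at *KNAT3* or *KNAT5*, and *KNAT4* had 1 small peak in 2 of 4. H2AK121ub peaks were found in both WT libraries at every member but *STM*. The 6 WT H2AK121ub samples held only 2 sets of values, the same in the tables of all mutants, and were counted as 2 libraries.

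The *STM* gene, which initiates and maintains the shoot meristem, occupies chr1:23058582-23062063 on the minus strand. Its H3K27me3 domain spanned 11606 to 13563 bp in the 4 WT libraries and reached far upstream of the gene. Only 0.238% to 0.388% of the WT H3K27me3 peaks in a library were at least as long. The domain had 108 ± 4.58 reads per kb per 1000000 reads in WT peaks (SD, n = 4), where the median over all peaks of a library was 36.1 to 42.9. *KNAT6* followed at 75.4 ± 4.26 and *KNAT7* at 66.9 ± 2.25. The ranges of these neighbours in the order did not overlap, with 103 to 113 at *STM*, 70.6 to 80.4 at *KNAT6* and 65 to 69.8 at *KNAT7*. *KNAT2* (55.8 ± 3.39) and *KNAT1* (53.4 ± 4.42) came next, and their ranges overlapped. The small *KNAT4* peak had 27.1 and 31.7 in the 2 libraries that had it.

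For H2AK121ub in WT, the class II genes had the higher densities. *KNAT5* had 79.9 ± 8.99 reads per kb per 1000000 reads in peaks, *KNAT4* 61.8 ± 8.58, *KNAT3* 59.1 ± 17.6 and *KNAT7* 51.5 ± 1.32 (SD, n = 2 each). The class I genes with a peak had less, with 47.3 ± 0.457 at *KNAT6*, 37.2 ± 0.338 at *KNAT2* and 34.4 ± 0.00156 at *KNAT1*. The median over all H2AK121ub peaks of a library was 51.4 and 48. The values at *KNAT3* were 71.5 and 46.6, so its range covered that of *KNAT4*, *KNAT7* and *KNAT6*. H2AK121ub lengths also varied, with 427 to 990 bp covered at *KNAT1* and 3002 to 3176 bp at *KNAT7*. At *KNAT1*, *KNAT6* and *KNAT7* every H2AK121ub peak overlapped an H3K27me3 peak of the same replicate number, and at *KNAT3* and *KNAT5* none did.

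**Figure D1:**
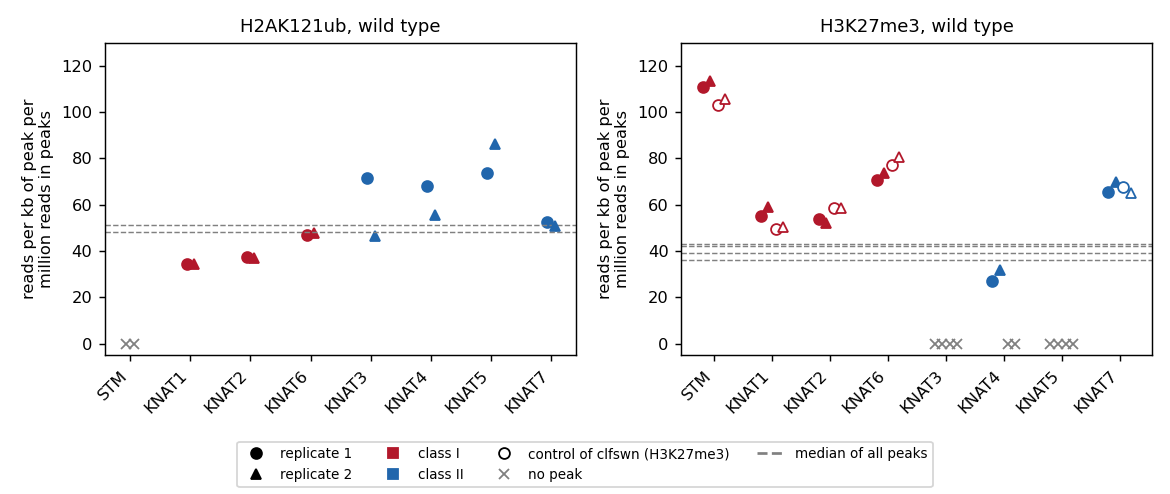
Read density of the 8 KNOX genes in WT seedlings, in reads per kb per 1000000 reads in the peaks of the library, for H2AK121ub (2 libraries) and H3K27me3 (4 libraries). Points are libraries, with open symbols for the WT controls of *clfswn*, crosses at 0 mark libraries with no peak, dashed lines are medians over all peaks, and red and blue are class I and class II. *STM* stands highest for H3K27me3 (103 to 113) and has no H2AK121ub peak, while *KNAT3* and *KNAT5* have H2AK121ub peaks only.

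**Figure D2:**
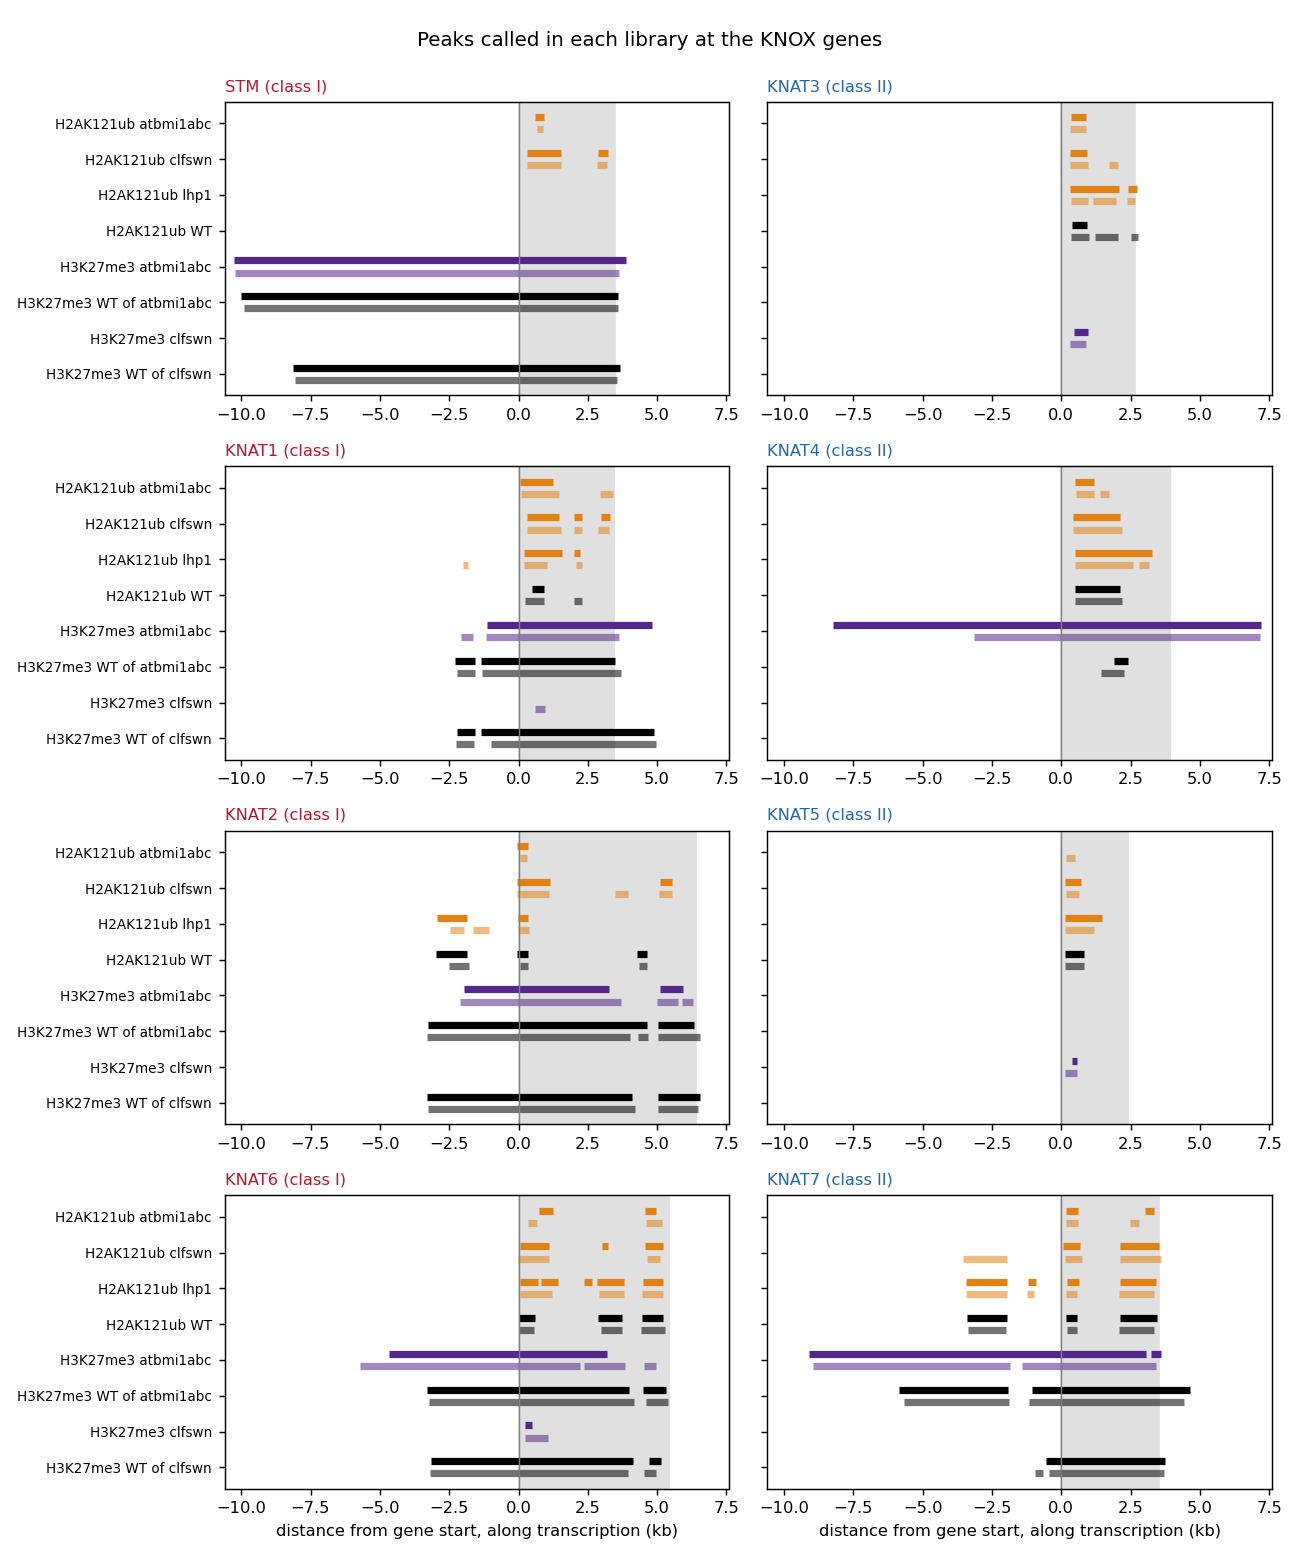
Peaks of each library at the 8 KNOX genes, by distance from the gene start along transcription (kb), with the gene body in grey. Mutant libraries of H2AK121ub are orange, those of H3K27me3 purple, and WT libraries black, and in each pair replicate 1 is above replicate 2. H3K27me3 covers *STM* over 11606 to 13563 bp in WT, with no peak there in *clfswn*, where an H2AK121ub peak of 1214 and 1235 bp lies inside the gene.

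H2AK121ub in *atbmi1abc* asks how far these genes depend on AtBMI1 proteins for ubiquitination. Of 14 KNOX regions found in both replicates, 8 were reduced and 1 was increased, where 64% of all 20673 regions were reduced and 0.716% increased. The reduced regions belonged to *KNAT2*, *KNAT6*, *KNAT4*, *KNAT5* and *KNAT7*, and the increased one to *STM*. Of the 14 regions, 3 at *KNAT2* and *KNAT6* were peaks in WT alone, and were listed because they were high there. The median log2 ratio of the 14 regions was −1.3 in replicate 1 and −0.62 in replicate 2, beside −1.35 and −0.81 for all regions. These calls hold on the authors' rescaling: when libraries were scaled by their total reads in regions, which moves all ratios up by 1.38 and 0.866, 1 KNOX region was reduced and 6 were increased.

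H2AK121ub in *clfswn* asks whether ubiquitination of the family needs PRC2. Of 18 KNOX regions, 4 were reduced and 6 increased, beside 30.4% and 12.4% of all 24038 regions. The increased regions were at *STM*, *KNAT1*, *KNAT2* and *KNAT7*, and the reduced ones at *KNAT2*, *KNAT6* and *KNAT5*. Of the 6 increased regions, 2 were called as peaks in *clfswn* alone and were listed because they were high there, and the other 4 were peaks in WT as well. Without the replicate block, 1 region was reduced and 1 increased. With scaling by total reads, 3 were reduced and 9 increased.

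H2AK121ub in *lhp1* asks the same of LHP1. Of 16 KNOX regions, 5 were increased, at *KNAT1*, *KNAT6*, *KNAT3*, *KNAT4* and *KNAT7*, beside 9.54% of all 22056 regions. By edgeR 0 were reduced, beside 0.612% of all regions, with 0 at an unadjusted p under 0.05 and 0 by DESeq2. Unscaled reads were higher in *lhp1* in both replicates in 14 of 16 regions. The share of all regions with that pattern was not computed. The *lhp1* libraries held more reads over all regions, with 9405576 and 8224958 against 7372476 and 7719012 in WT. The KNOX medians were 0.56 and 0.34 on the log2 scale, beside 0.31 and 0.08 for all regions. DESeq2 and the fit without the replicate block called 0 increased, against 9 at an unadjusted p under 0.05 in edgeR.

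**Figure D3:**
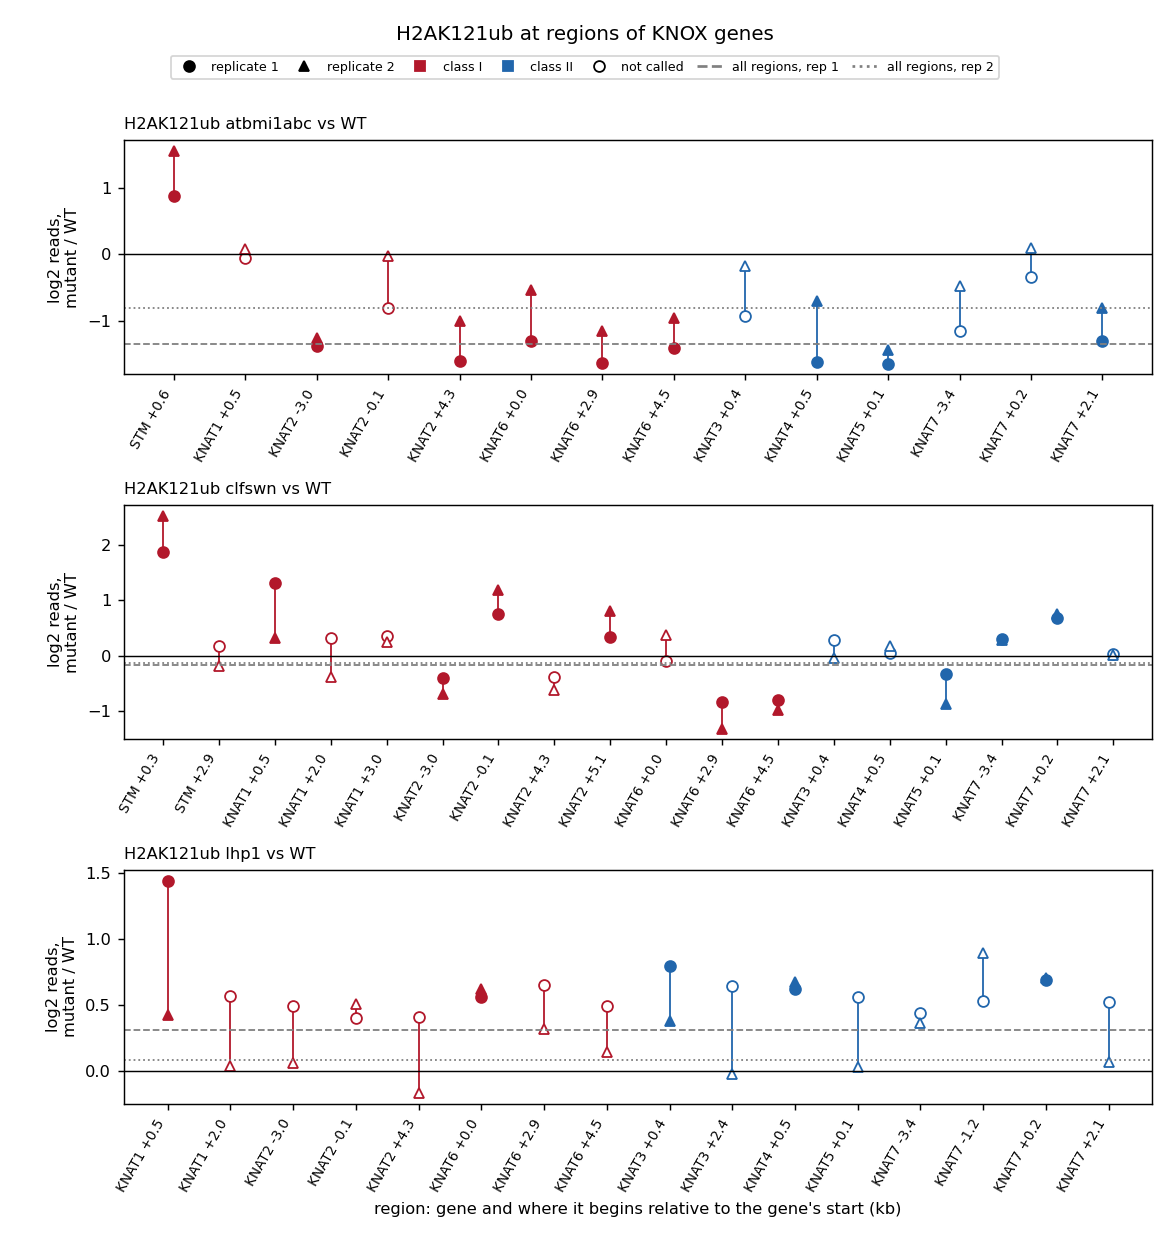
Log2 ratio of H2AK121ub reads, mutant over WT, in each KNOX region of *atbmi1abc*, *clfswn* and *lhp1*, with circles for replicate 1 and triangles for replicate 2. Filled symbols are regions called by edgeR at an adjusted p under 0.05, and grey lines are the medians of all regions. In *clfswn* the *STM* region stands at 1.87 and 2.53. In *atbmi1abc* 11 of 14 regions lie below 0 in both replicates, where the medians of all regions are −1.35 and −0.81. In *lhp1* 14 of 16 lie above 0 in both replicates, where those medians are 0.31 and 0.08.

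For H3K27me3, which library stands in which column was taken from the order in which the tables name them. This could not be checked against a second table, since the WT libraries of the 2 comparisons share no peak with the same limits and reads. H3K27me3 in *atbmi1abc* asks whether methylation of the family changes when AtBMI1 proteins are missing. Of 10 KNOX regions, 8 were reduced, where 38% of all 9602 regions were, and 1 was increased, where 31.8% were. All class I genes had a reduced region, and *KNAT7* had 2. The increased region was at *KNAT4*. Without the replicate block 3 were reduced.

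H3K27me3 in *clfswn* tests the family for dependence on PRC2 methyltransferases. Of 10 KNOX regions, 7 were reduced and 2 increased, beside 64.8% and 10.1% of all 10211 regions. The reduced regions covered all class I genes and *KNAT7*, and the increased ones were at *KNAT3* and *KNAT5*. Both increased regions were peaks in *clfswn* alone, and so had to be high there. Of all 1103 regions that were peaks in *clfswn* alone in both replicates, 1009 were called increased. Likewise, 6 of the 10 KNOX regions were peaks in WT alone in both replicates. These were listed because they were high in WT. DESeq2 called 4 reduced and 2 increased, and TMM normalization gave 5 and 3. The 7 reduced regions had log2 ratios of −5.19 to −3.5 in replicate 1 and −3.62 to −1.83 in replicate 2, beside all-region medians of −3.26 and −1.98. No adjusted p among the KNOX regions was below 0.0295. Reads on organelle chromosomes were 43863 and 150443 in *clfswn* and 3010 and 4849 in WT, and their part in these values was not tested.

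**Figure D4:**
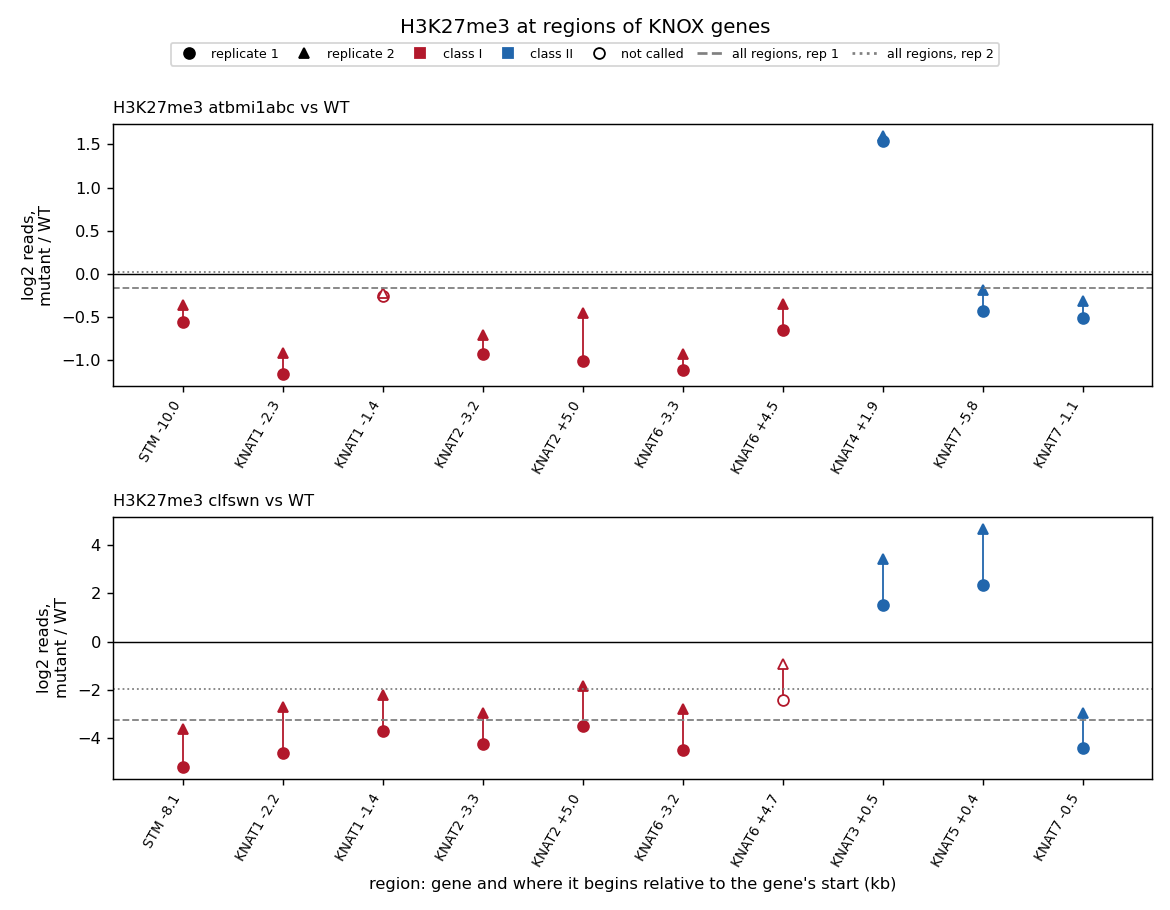
Log2 ratio of H3K27me3 reads, mutant over WT, in each KNOX region of *atbmi1abc* and *clfswn*, with circles for replicate 1 and triangles for replicate 2. Filled symbols are regions called by edgeR at an adjusted p under 0.05, and grey lines are the medians of all regions. *KNAT4* is the region above 0 in *atbmi1abc* (1.54 and 1.6), and *KNAT3* and *KNAT5* are the regions above 0 in *clfswn*.

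At *STM* the marks moved in opposite directions in *clfswn*. The H3K27me3 domain (chr1:23058400-23070182 in replicate 1) had 318 and 628 reads in *clfswn*, against 11641 and 7710 in WT. The log2 fold change was −4.3 with a standard error of 1.47 (edgeR adjusted p = 0.0295), and neither *clfswn* library had a peak there. Both *clfswn* libraries were far below both WT libraries. An H2AK121ub region from 301 to 1515 bp past the start (chr1:23060548-23061762) had 404 and 421 reads in *clfswn*, against 110 and 72 in WT. This was the strongest H2AK121ub change among the members, at 2.23 ± 0.14 on the log2 scale (SE, edgeR adjusted p = 9.39e-53), in a region picked as a *clfswn* peak. It covers 685 bases of coding exon, 40 of 5′ UTR and 490 of intron, and holds the window with the GAGA repeat and the telobox given above. A second *clfswn* peak, from 2862 to 3226 bp, had 67 and 72 reads in *clfswn* and 59 and 82 in WT, and the ranges overlapped (edgeR adjusted p = 0.932).

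The *STM* domain was also reduced for H3K27me3 in *atbmi1abc*. It had 6156 and 5567 reads in *atbmi1abc*, against 9079 and 7133 in WT, a log2 fold change of −0.39 ± 0.14 (SE, edgeR adjusted p = 0.00868). This call was lost without the replicate block (adjusted p = 0.36). A short H2AK121ub peak from 588 to 914 bp, inside the region called in *clfswn*, had 56 and 40 reads in *atbmi1abc* and 30 and 13 in WT. It was called increased at 1.3 ± 0.49 (SE, edgeR adjusted p = 0.0146), on few reads and in a region listed because it was a peak in *atbmi1abc*. The *lhp1* and WT libraries had no H2AK121ub peak at *STM*.

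*KNAT1*, also known as *BREVIPEDICELLUS* and needed for internode and pedicel growth, lies at chr4:5147699-5151159 on the minus strand. Its H2AK121ub region from 499 to 926 bp past the start had 263 and 237 reads in *clfswn* and 286 and 256 in *lhp1*, against 105 and 191 in WT, where replicate 2 had wider limits. Both mutants lay above WT in each replicate, more so in replicate 1 (log2 ratios of 1.32 and 0.31 in *clfswn*, and of 1.44 and 0.42 in *lhp1*). The log2 fold change was 0.82 ± 0.14 in *clfswn* (SE, edgeR adjusted p = 1.8e-07) and 0.81 ± 0.16 in *lhp1* (SE, edgeR adjusted p = 1.5e-05). These comparisons share the WT libraries. In *atbmi1abc* it had 101 and 202 reads, and its fold change of 0.12 ± 0.35 was not called (edgeR adjusted p = 0.754). Its log2 ratios were −0.06 and 0.08, beside medians of −1.35 and −0.81 over all regions. It was called increased under TMM, total-read and DESeq2 scaling.

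The H3K27me3 domain over *KNAT1* had 228 and 407 reads in *clfswn*, against 2994 and 1900 in WT (log2 fold change −2.88 ± 1.38, SE, edgeR adjusted p = 0.0499). In *atbmi1abc* it had 1396 and 1193 reads, against 1667 and 1390 in WT, and was not called (−0.2 ± 0.11, SE, edgeR adjusted p = 0.0783). An upstream H3K27me3 region, from −2305 to −1579 bp, was reduced in *atbmi1abc*, with 81 and 87 reads against 183 and 165 in WT (−1.07 ± 0.22, SE, edgeR adjusted p = 2.55e-06). So the 2 parts of this gene's H3K27me3 differed in *atbmi1abc*, without a test of their difference. In *clfswn* the upstream region had 10 and 26 reads against 266 and 176 in WT (edgeR adjusted p = 0.0295).

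*KNAT2*, a class I gene whose excess turns ovules towards carpel identity, lies at chr1:26576486-26582879 on the plus strand. Its H2AK121ub moved in unlike ways along the gene. The region at the start, from −50 to 332 bp, had 241 and 209 reads in *clfswn*, against 142 and 92 in WT, and was increased (1 ± 0.16 on the log2 scale, SE, edgeR adjusted p = 2.79e-09). The region from −2978 to −1874 bp had 202 and 112 reads in *clfswn*, against 269 and 181 in WT, and was reduced (−0.49 ± 0.15, SE, edgeR adjusted p = 0.00298). Another region, from 5110 to 5517 bp and a peak in *clfswn* alone, had 98 and 160 reads against 77 and 91 in WT (0.65 ± 0.18, SE, edgeR adjusted p = 0.00181). In *atbmi1abc* the start region was not called, with 81 and 91 reads against 142 and 92 in WT. There the regions from −2978 and from 4255 bp were both reduced by 1.23 on the log2 scale (edgeR adjusted p = 0.00176 and 0.00974). None of the 3 *KNAT2* regions in the *lhp1* comparison was called.

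The main H3K27me3 domain of *KNAT2* had 1382 and 1158 reads in *atbmi1abc*, against 2626 and 1898 in WT, and both *atbmi1abc* libraries lay below both WT libraries (−0.78 ± 0.11, SE, edgeR adjusted p = 1.22e-12). In *clfswn* it had 229 and 366 reads, against 4353 and 2831 in WT (−3.52 ± 1.42, SE, edgeR adjusted p = 0.0313). A second domain at the 3′ end was reduced in both mutants, with −0.74 in *atbmi1abc* and −2.64 in *clfswn* on the log2 scale. The *clfswn* value of that second domain turned to 0.08 under TMM normalization.

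*KNAT6*, which acts with *STM* in the meristem and organ boundaries, lies at chr1:8297241-8302651 on the minus strand. It had 3 H2AK121ub regions in WT, at the start, in the middle and at the 3′ end. All 3 were reduced in *atbmi1abc*, where 64% of all regions were. The middle region, from 2850 to 3747 bp, had 80 and 101 reads in *atbmi1abc* and 140 and 90 in *clfswn*, against 249 and 226 in WT, with no overlap of unscaled reads. Its log2 fold change was −1.29 ± 0.36 in *atbmi1abc* (SE, edgeR adjusted p = 0.000961) and −1.02 ± 0.16 in *clfswn* (SE, edgeR adjusted p = 9.48e-10). The start region, from 9 to 589 bp, was also reduced in *atbmi1abc*, at −0.82 ± 0.35 (SE, edgeR adjusted p = 0.0346). Under TMM, total-read and DESeq2 scaling the sign of that change reversed. In *clfswn* the start region had 188 and 231 reads against 201 and 177 in WT, which overlapped, and was not called (edgeR adjusted p = 0.296). The 3′ region was reduced in *clfswn* by 0.86 on the log2 scale. In *lhp1* the start region had 296 and 273 reads, above both WT libraries (0.5 ± 0.15, SE, edgeR adjusted p = 0.0139).

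H3K27me3 at *KNAT6* had the clearest reduction in *atbmi1abc* among the main domains. It had 1523 and 1416 reads in *atbmi1abc*, against 3302 and 2691 in WT, at a log2 fold change of −0.98 ± 0.11 (SE, edgeR adjusted p = 1.7e-18). In *clfswn* it had 252 and 551 reads, against 5598 and 3769 in WT (−3.52 ± 1.44, SE, edgeR adjusted p = 0.0319). Unlike *STM* and *KNAT2*, *KNAT6* kept a small H3K27me3 peak in both *clfswn* libraries. It ran from 244 to 503 bp in replicate 1, with 44 reads against 572 in WT, and from 226 to 1078 bp in replicate 2, with 176 against 896 in WT.

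The authors' peak limits gave H2AK121ub peaks near the start of class I genes that were longer in *clfswn* than in WT, in both replicates. The *KNAT1* start peak was 1157 and 1243 bp long in *clfswn*, against 427 and 701 bp in WT. The *KNAT2* start peak was 1172 and 1162 bp long in *clfswn*, against 382 and 286 bp in WT. At *KNAT6* it was 1045 and 1109 bp in *clfswn*, against 580 and 515 bp in WT, and at *STM* 1214 and 1235 bp in *clfswn* with no peak in WT. Among class II start peaks, that of *KNAT7* was also longer, at 587 and 612 bp in *clfswn* against 419 and 362 bp in WT. The *KNAT3* peak was 621 and 672 bp in *clfswn* against 528 and 647 bp in WT, and the *KNAT4* peak 1681 and 1772 bp in *clfswn* against 1611 and 1679 bp in WT. The *KNAT5* peak was shorter, at 558 and 468 bp in *clfswn* against 692 and 698 bp in WT. Of all regions called in both libraries, 53.8% and 50.5% were longer under the *clfswn* limits, and the median ratio of lengths, *clfswn* over WT, was 1.02 and 1. No test was run on lengths. In the other mutants the lengths varied by gene. The *KNAT6* peak was 667 and 1176 bp long in *lhp1*. The *KNAT1* peak was 1176 and 1381 bp long in *atbmi1abc* and 1372 and 812 bp in *lhp1*, whereas the *KNAT2* peak was 371 and 248 bp in *atbmi1abc* and 372 and 369 bp in *lhp1*. Of class II, the *KNAT3* peak was 1752 and 617 bp in *lhp1* and 548 and 561 bp in *atbmi1abc*. The *KNAT4* peak was 2769 and 2107 bp in *lhp1* and 679 and 623 bp in *atbmi1abc*. Longer start peaks outside *clfswn* were thus not confined to class I. Within the *KNAT6* peak's limits in *clfswn*, reads were 269 and 355 in *clfswn* and 274 and 261 in WT.

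Among class II genes, *KNAT3*, a broadly expressed gene, lies at chr5:8735944-8738601 on the plus strand. Its H2AK121ub region from 403 to 931 bp had 467 and 422 reads in *lhp1*, above 270 and 324 in WT (0.49 ± 0.13, SE, edgeR adjusted p = 0.00474). It was not called in *atbmi1abc* (142 and 286 reads) or in *clfswn* (329 and 312). *KNAT3* had no H3K27me3 peak in WT and gained one in *clfswn* over the same stretch. From 475 to 949 bp it had 95 and 192 reads in *clfswn*, against 33 and 17 in WT (2.53 ± 1.17, SE, edgeR adjusted p = 0.0435). The region was listed because it was a peak in *clfswn*, so its direction was set by the listing. On unscaled reads the adjusted p was 0.0554.

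*KNAT4*, a close relative of *KNAT3*, lies at chr5:3509833-3513741 on the plus strand. Its long H2AK121ub region, from 492 to 2103 bp, had 254 and 430 reads in *atbmi1abc* and 1202 and 1118 in *lhp1*, against 782 and 701 in WT. On unscaled reads neither mutant overlapped WT, and the log2 fold changes were −1.03 ± 0.33 in *atbmi1abc* (SE, edgeR adjusted p = 0.00457) and 0.54 ± 0.12 in *lhp1* (SE, edgeR adjusted p = 0.000362). The region's log2 ratios were −1.62 and −0.7 in *atbmi1abc*, beside medians of −1.35 and −0.81 over all regions. In *lhp1* they were 0.62 and 0.67, beside medians of 0.31 and 0.08. In *clfswn* it had 812 and 790 reads and was not called (edgeR adjusted p = 0.174).

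H3K27me3 at *KNAT4* rose in *atbmi1abc*, the one KNOX region to do so. Its small WT peak, from 1916 to 2393 bp in replicate 1 (chr5:3511749-3512226), had 228 and 382 reads in *atbmi1abc*, against 78 and 125 in WT. The log2 fold change was 1.59 ± 0.18 (SE, edgeR adjusted p = 1.65e-17). The peak that the authors called there in *atbmi1abc* itself was far wider, over 15447 and 10314 bp. In replicate 1 it reached the neighbouring genes AT5G11050 and AT5G11070, and in replicate 2 AT5G11070. Over those limits reads were 4958 and 3109 in *atbmi1abc*, against 1839 and 665 in WT. The *clfswn* comparison had no H3K27me3 peak at *KNAT4*.

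*KNAT5*, another relative of *KNAT3*, lies at chr4:15493989-15496381 on the plus strand. Its H2AK121ub region, from 124 to 816 bp, had 116 and 167 reads in *atbmi1abc*, against 364 and 451 in WT. That was the largest reduction of H2AK121ub among KNOX regions in *atbmi1abc* (−1.43 ± 0.34, SE, edgeR adjusted p = 0.000137). It was also reduced in *clfswn*, with 288 and 244 reads (−0.57 ± 0.12, SE, edgeR adjusted p = 7.5e-06), and not called in *lhp1*. In H3K27me3 the gene gained a peak in *clfswn*, from 398 to 553 bp in replicate 1, with 50 and 151 reads in *clfswn* and 9 and 5 in WT (3.66 ± 1.21, SE, edgeR adjusted p = 0.0295). Reads were few, in a region listed because it was a peak in *clfswn*, so its direction was set by the listing. Replicate 1 gave a smaller ratio (2.35) than replicate 2 (4.66).

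*KNAT7*, a regulator of secondary cell wall formation, lies at chr1:23337167-23340692 on the plus strand and is the class II member within an H3K27me3 domain. Reads in that domain were 1243 and 1210 in *atbmi1abc*, against 1784 and 1511 in WT (−0.39 ± 0.11, SE, edgeR adjusted p = 0.000534). An upstream domain, which from −5832 to −1924 bp also covers sequence of AT1G62978, AT1G62980 and AT1G62981, was reduced by 0.28 on the log2 scale in *atbmi1abc* (edgeR adjusted p = 0.0141). With the *atbmi1abc* peak limits, which join both domains in replicate 1, the change was 0. In *clfswn* the gene's domain had 132 and 227 reads, against 2770 and 1779 in WT (−3.62 ± 1.41, SE, edgeR adjusted p = 0.0297).

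For H2AK121ub the *KNAT7* start region, from 166 to 585 bp, had 212 and 182 reads in *clfswn* and 213 and 176 in *lhp1*, against 132 and 108 in WT. It was increased in *clfswn* (0.76 ± 0.16, SE, edgeR adjusted p = 1.29e-05) and in *lhp1* (0.61 ± 0.17, SE, edgeR adjusted p = 0.00637), whereas in *atbmi1abc* its 104 and 115 reads were not called (edgeR adjusted p = 0.956). The 3′ region, from 2105 to 3439 bp, was reduced in *atbmi1abc*, with 159 and 227 reads against 392 and 397 in WT (−0.94 ± 0.33, SE, edgeR adjusted p = 0.0104). A region from −3384 to −1961 bp, which overlaps the 2 kb before the start by few bases, also lies over the neighbouring gene AT1G62981 and is the KNOX region nearest to that limit, was increased in *clfswn*, with 823 and 770 reads against 668 and 633 in WT (0.33 ± 0.09, SE, edgeR adjusted p = 0.00158). Just beyond the limit, an H3K27me3 region of *KNAT7* from −6333 to −2043 bp had 158 and 221 reads in *clfswn* and 3701 and 2359 in WT, and one of *KNAT5* from −2828 to −2391 bp had 98 and 266 in *clfswn* and 21 and 16 in WT.

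The H3K27me3 peaks that *clfswn* libraries had at KNOX genes shared their position with H2AK121ub. Replicate 1 had 3, at *KNAT6*, *KNAT3* and *KNAT5*, and replicate 2 had 4, with *KNAT1* added. All lay over coding sequence near the start of the gene, at 154 to 1078 bp, with intron in those of *KNAT6* and *KNAT3*. All 3 and all 4 overlapped a WT H2AK121ub peak. Of all nuclear H3K27me3 peaks in *clfswn*, 43.5% of 1678 in replicate 1 and 40.5% of 3605 in replicate 2 did so. With counts of 3 and 4, this is a description of where the peaks lay.

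The medians of the classes were set against each other within each replicate. For H2AK121ub the median log2 ratio of class I minus class II regions was −0.14 ± 0.03 in *atbmi1abc*, 0.01 ± 0.1 in *clfswn* and −0.1 ± 0.05 in *lhp1* (SD, n = 2 replicates). For H3K27me3 it was −0.38 ± 0.16 in *atbmi1abc* and −5.94 ± 0.28 in *clfswn*, where class I medians were −4.24 and −2.71 and class II medians 1.5 and 3.42. The class II medians rest on 3 regions, of which 2 had been listed as *clfswn* peaks, so their direction was set by the listing. Class I regions included ones listed as peaks in WT alone, which favours low ratios. With 2 replicates the smallest two-sided sign-flip p is 0.5, and the classes were not tested.

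The remaining 16 KNOX regions were found in a single replicate table and entered no test. Their log2 ratios ran from −2.12, at a WT peak upstream of *KNAT7* in H3K27me3 of *clfswn* (8 reads against 38 in WT), to 1.07. The highest was a peak of *KNAT6* in *lhp1* alone, from 817 to 1435 bp, with 203 reads against 96 in WT.

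BELL proteins pair with KNOX proteins, and 13 of their genes were examined in the same fits. In *atbmi1abc*, 10 of 23 H2AK121ub regions were reduced (1 by DESeq2), where 64% of all regions were, led by *BLH7* (36 and 52 reads in *atbmi1abc*, 180 and 214 in WT, −2.08), *BLH6* (−1.49) and *ATH1* (−1.39). By edgeR 0 were increased, with 0 at an unadjusted p under 0.05 and 7 by DESeq2. In *clfswn* 6 of 27 were reduced, with *BLH7* lowest at −1.05, against 30.4% of all regions, and 3 were increased, all at *BLH2*, against 12.4%. DESeq2 called 1 of the 27 reduced and 2 increased. In *lhp1* 9 of 26 were increased by edgeR, at *BEL1*, *BLH1*, *BLH2*, *BLH4* and *ATH1*, where 9.54% of all regions were. DESeq2 called 0 of them increased, with 15 at an unadjusted p under 0.05 in edgeR. By edgeR 0 were reduced (0 at an unadjusted p under 0.05, 0 by DESeq2). For H3K27me3 in *atbmi1abc*, 13 of 17 BELL regions were increased, led by *BLH1* (218 and 71 reads in *atbmi1abc*, 72 and 12 in WT, 1.88) and *ATH1* (1.39), and 3 were reduced, at *BLH8* and *BLH9* (annotated as *RPL*). Of all regions, 31.8% were increased and 38% reduced there, and DESeq2 called 13 BELL regions increased and 2 reduced. The median log2 ratio there was 0.52 and 0.8 for BELL regions, −0.61 and −0.35 for KNOX regions, and −0.17 and 0.02 for all regions. In *clfswn* 6 of 11 H3K27me3 regions were reduced (4 by DESeq2), where 64.8% of all regions were, at *BLH4*, *BLH5*, *BLH8* and *BLH9*, and by edgeR 0 increased (0 at an unadjusted p under 0.05, 1 by DESeq2). For H2AK121ub the median BELL log2 ratios were −0.96 and −0.59 in *atbmi1abc*. They were −0.19 and −0.15 in *clfswn*, with 0.5 and 0.36 in *lhp1*. The H3K27me3 medians in *clfswn* were −3.36 and −1.73.

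A list of 13 regulators and targets of class I KNOX genes held the repressors *AS1* and *AS2*, boundary genes such as *CUC1*, *CUC2* and *BOP1*, and cytokinin and gibberellin genes. In *atbmi1abc* 12 of 22 H2AK121ub regions were reduced (3 by DESeq2), where 64% of all regions were, led by *CUC1* (17 and 34 reads in *atbmi1abc*, 115 and 219 in WT, −2.64), the cytokinin synthesis gene *IPT5* (−2.21) and *AS1* (−1.56). By edgeR 0 were increased, with 0 at an unadjusted p under 0.05 and 5 by DESeq2. In *clfswn* 8 of 24 were increased, led by *AS2* (589 and 570 reads in *clfswn*, 282 and 271 in WT, 1.11), and 4 were reduced, led by *CUC1* (−1.28). Of all regions, 12.4% were increased and 30.4% reduced, and DESeq2 called 8 of the list increased and 2 reduced. In *lhp1* 6 of 26 were increased, at *AS2* (1.05), *CUC2* (1.03), *BOP1* and *BOP2*, against 9.54% of all regions (4 of the list by DESeq2). By edgeR 0 were reduced (1 at an unadjusted p under 0.05, 0 by DESeq2). H3K27me3 was reduced in 8 of 13 regions in *atbmi1abc*, led by *IPT5* (18 and 34 reads in *atbmi1abc*, 200 and 299 in WT, −3.31), and increased in 2, at *KNATM* (0.29) and *GA2OX4* (0.44). Of all regions, 38% were reduced and 31.8% increased, and DESeq2 called 6 of the list reduced and 2 increased. In *clfswn* 15 of 15 were reduced, led by *CUC2* (−4.57) and *BOP1* (−4.51), where 64.8% of all regions were. DESeq2 called 6 of these 15 reduced. By edgeR 0 were increased (0 at an unadjusted p under 0.05, 0 by DESeq2). The median log2 ratios of the list for H2AK121ub were −1.22 and −0.64 in *atbmi1abc*. They were −0.11 and 0.17 in *clfswn*, with 0.38 and 0.25 in *lhp1*. The H3K27me3 medians were −0.55 and −0.35 in *atbmi1abc* and −4.1 and −2.81 in *clfswn*.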

How the data were processed

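Whole WT and mutant seedlings at 7 DAG gave 21 samples, of which 20 had columns in 10 tables, and 1 was input DNA. Per the study's methods, the authors aligned reads with bowtie to TAIR10, keeping unique alignments, called peaks with MACS2 against a common input, and for each mark, mutant and replicate deposited read counts in the peaks of 1 mutant and 1 WT library. Versions are not given in the sources used here. The deposited tables also hold the authors' comparison, a log2 ratio of mutant to WT and a mean log2 intensity, both rescaled by a robust regression line through shared peaks that changed little, and a −log10 p-value. For *atbmi1abc* those shared peaks were limited to genes without differential expression. These columns were not used as results. The log2 ratio was read only to recover the rescaling line of each table, which became the offset of the count model.

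A region called in both libraries was counted once, with the WT limits, and regions of the replicate tables were paired where each was the other's best overlap, from 1 bp up. Read counts were fitted with edgeR 4.0.16 in R 4.3.3, and p-values were adjusted over all regions of a comparison. The replicate was a block, because the labels tie every mutant library to a named control. For H2AK121ub these controls are the same 2 libraries for all mutants, so there the pairing rests on the labels alone. The code of the fit was run on simulated counts with a fixed small spread and no rescaling offset. That setting differs from these data, so it does not show how well the fit performs on them. The tables fix the mutant and WT columns of H2AK121ub, whose WT column is shared by all mutants. For H3K27me3 the order of names was followed. All members were named, and list genes only where called and among the 3 largest changes of their list, or in a count of 5 or fewer. The members and lists were chosen with earlier results of these data known. Alternatives changed the scaling (TMM, total reads, none, the last chosen after seeing the data), the model (DESeq2 1.42.0, no block), read filters, overlap, limits and the 2 kb rule. RefSeq's TAIR10.1 gave genes and sequence, and peak coordinates are as deposited. Ratios over reads cover counting and library spread only, and depth outside peaks was not analysed here.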

Additional observations from a re-analysis of the deposited data

How the results depend on the processing

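Most calls depend on the scaling and on the replicate block. For H2AK121ub in *atbmi1abc*, the 8 reduced KNOX regions became 1 with TMM, 1 with total reads and 0 with DESeq2 (9 at an unadjusted p under 0.05 in edgeR), and the 1 increased became 5, 6 and 3, or 0 with at least 100 reads per region. In *clfswn* the 4 reduced became 2 with DESeq2 and 1 without the replicate block, which also left 1 of the 6 increased. In *lhp1* the 5 increased became 0 with DESeq2, which gave no adjusted p to 2 of them, and 0 without the block. For H3K27me3 in *atbmi1abc*, the 8 reduced became 5 with total reads, with the mutant's peak limits and with a call that also needs levels under 80% or over 120% of WT, and 3 without the block. In *clfswn* the 7 reduced became 4 with DESeq2 and the 2 increased 1 on unscaled reads. The class difference moved with regions in the gene body only to 0.08, 0.25 and 0.01 for H2AK121ub in *atbmi1abc*, *clfswn* and *lhp1*, and to −1.17 for H3K27me3 in *atbmi1abc*. With the mutant's limits it was 0.16 for H2AK121ub in *clfswn*, and −1.52 and −5.49 for H3K27me3 in *atbmi1abc* and *clfswn*.

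Some fold changes of regions reversed. For H2AK121ub in *atbmi1abc* the log2 fold change with TMM, total reads and DESeq2 was 0.17, 0.23 and 0.16 at the start of *KNAT6*, 0.97, 1.03 and 0.97 at the start of *KNAT7*, and 0.04, 0.1 and 0.04 at its 3′ region. With TMM and total reads it was 0.68 and 0.74 at the start of *KNAT2* and 0.55 and 0.61 at *KNAT3*, and with total reads 0.34 upstream of *KNAT7*. For H3K27me3, both *KNAT7* regions in *atbmi1abc* were at 0 with the mutant's limits. In *clfswn*, TMM gave 1.04 at the 3′ region of *KNAT6* and 0.08 at that of *KNAT2*, where DESeq2 gave 0. Leaving out a replicate reversed none of the fold changes that were called, and leaves no test. Some uncalled regions changed sign between replicates, such as *KNAT3* for H2AK121ub in *clfswn*, with log2 ratios of 0.28 and −0.05. The causes were not tested. Regions under 100 reads, and H3K27me3 of *clfswn* with its unlike replicates, are the least precise.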
